A study of Mus musculus with 4 samples.

Results

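The matrix metalloproteinases (Mmp), the secreted Adamts proteases and the tissue inhibitors of metalloproteinases (Timp) were followed through single cells of 4T1 mouse mammary tumours. Members were taken by gene symbol alone: 23 Mmp, 19 Adamts and 4 Timp genes, 46 of the 55450 genes in the matrix. All 46 had at least 1 unique molecular identifier (UMI, the count of 1 captured transcript), 36 had at least 100 UMIs and 30 had at least 500. Together they held 1289296 UMIs, 0.363% of the 354742109 UMIs in the cells that were kept. The 4 Timp genes made up 60.8% of these member UMIs, the Mmp genes 25.9% and the Adamts genes 13.3%.

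Female BALB/c mice aged 6 to 8 weeks carried 1000000 4T1 cells in the right flank. PBS or TIOs were injected into the vein on day 7, and tumours were taken on day 13 for a sort on CD45. TIOs are macrophages loaded with Ce6-labelled upconverting nanoparticles, which also carry the GPX4 inhibitor RSL3, and then frozen in liquid nitrogen. Every group received the same near-infrared light, given on day 8, day 9 and day 10 for 5 min each (980 nm, 1.0 W cm-2), so the controls were not light-free. How many mice made up a library is not stated. The labels placed 2 samples in the PBS group and 1 in the TIOs group, and 1 sample of the 4 could not be placed because its title and its protocol entry named different treatments. The deposited barcodes carry a suffix from 1 to 4, here called library 1 to library 4, and no source ties a suffix to a sample. The treatments were therefore not compared, each library is given on its own, and no p-value is printed.

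Of 33064 barcodes, 32133 had at least 300 genes and at most 15% mitochondrial UMIs. Marker genes placed 26685 of them in 15 classes of at least 50 cells, and each class name stands for cells that look like that type by those markers (neutrophil for neutrophil-like, and so on). Library totals ran from 69144957 to 108363974 UMIs with medians of 2641.5 to 11698 UMIs per cell, and 101 barcode sequences occurred in 2 or more libraries. In spite of the CD45 sort, 8854 of these cells (33.2%) fell in 5 classes that are not leucocytes. Ptprc, the gene for CD45, reached 8.69 to 17.7 UMIs per 1000000 UMIs of the class (CPM) in those 5 classes and 151 to 1408 CPM in the 10 leucocyte classes. Library 1 stood apart in its makeup: it held 3759 of the 3982 tumour or epithelial cells, all 120 keratinocyte cells and 198 of the 4292 fibroblasts.

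Mmp enzymes cut the proteins of the extracellular matrix and are made as inactive pro-enzymes. Interstitial collagenases open fibrillar collagen, gelatinases digest the opened chains, stromelysins act on many matrix proteins, and the membrane-type enzymes work at the cell surface and activate other members. Adamts proteases process procollagens or cleave the large proteoglycans aggrecan and versican. Timp proteins bind the active site of the enzymes and block it. In tumours these genes are best known from fibroblasts, endothelial cells and myeloid cells. Levels below are CPM of the summed UMIs of a class. They compare 1 gene between classes or libraries and not 1 gene with another.

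A cluster of 10 Mmp genes lies on chromosome 9, in the order Mmp13, Mmp12, Mmp1b, Mmp3, Mmp1a, Mmp10, Mmp8, Mmp27, Mmp20 and Mmp7. The 120 bases before the start are shown for 4 of them, picked because they read higher in library 1 than in the others in some class, and for Mmp8, picked by hand from the same cluster. They come from RefSeq on build GRCm38.p6, all on the plus strand. They lie at chr9:7272394-7272513 (Mmp13), chr9:7347254-7347373 (Mmp12, the second of its starts), chr9:7445702-7445821 (Mmp3), chr9:7502222-7502341 (Mmp10) and chr9:7558309-7558428 (Mmp8). Capitals mark TGANTCA, the letters that the AP-1 factors Fos and Jun are known to bind. The pattern reads the same on both strands.
Mmp13: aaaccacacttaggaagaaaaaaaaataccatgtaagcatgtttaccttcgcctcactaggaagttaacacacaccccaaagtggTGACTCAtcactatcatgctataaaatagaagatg
Mmp12: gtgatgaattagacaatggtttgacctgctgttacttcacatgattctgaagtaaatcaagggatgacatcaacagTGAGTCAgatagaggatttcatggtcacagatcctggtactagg
Mmp3: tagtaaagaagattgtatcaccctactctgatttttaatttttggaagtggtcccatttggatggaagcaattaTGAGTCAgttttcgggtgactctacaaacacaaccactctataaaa
Mmp10: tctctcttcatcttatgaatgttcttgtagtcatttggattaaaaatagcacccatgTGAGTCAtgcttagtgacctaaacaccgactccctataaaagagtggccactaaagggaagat
Mmp8: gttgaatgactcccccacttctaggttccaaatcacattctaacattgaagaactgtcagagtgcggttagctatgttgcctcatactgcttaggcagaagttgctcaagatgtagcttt

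The match began 35 bases before the start in Mmp13, 44 in Mmp12, 46 in Mmp3 and 63 in Mmp10, and these letters were not in the Mmp8 window or in that of the first start of Mmp12. Mmp12 and Mmp1b overlap on opposite strands in the annotation. Over windows of 250 bases before to 50 bases after a start, 8 of 35 member promoters (22.9%) held TGANTCA, beside 2565 of 32851 promoters in the whole table (7.81%). The table had promoters for 32 of the 46 members. Mmp2, Mmp9, Mmp19, Adamts4 and Adamts5 were among the 14 without one, so whether they hold the letters was not read. All 8 members with a match were among the 10 of chromosome 9 with a promoter. Of the 22 members elsewhere with a promoter, 0 had a match. Mmp1a, Mmp1b, Mmp20 and Mmp7 of the cluster held the letters too, but had under 100 UMIs in each class in which libraries are compared below. Mmp8 and Mmp27 had no match. The printed genes were picked by their levels, so nothing about levels is read from these windows. A match is a string of letters in a window and was not measured as a bound site.

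Which cells held each gene was read from the class with the highest CPM. Fibroblasts led for 10 of the 36 members with at least 100 UMIs (27.8%), and 8.76% of all 16955 genes counted in the same way were led by fibroblasts. Pericyte or smooth muscle cells led for 7 members (10.3% of all genes), endothelial cells for 5 (9.79%), macrophages for 3 (2.48%), keratinocyte cells for 3 (5.78%), neutrophils for 2 (6.62%) and NK cells for 2 (7.62%). Monocytes (3.44% of all genes), mature dendritic cells (DC; 6.05%), T cells (6.32%) and basophil or mast cells (6.07%) led for 1 member each. In 24 of the 36 the leading class lay above every other class by its exact Poisson 95% interval, which covers counting error only. In 18 it was the same class in every library that held at least 20 of its cells. The counts of 24 and 18 have no share over all genes beside them and are not read as a trait of the members. The 3 keratinocyte leads held in the pooled values only, since all 120 of these cells lay in library 1. There fibroblasts led Mmp13 (417 CPM against 280 in keratinocyte cells) and Mmp10 (344 against 39.8), and monocytes led Mmp1a.

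**Figure D1:**
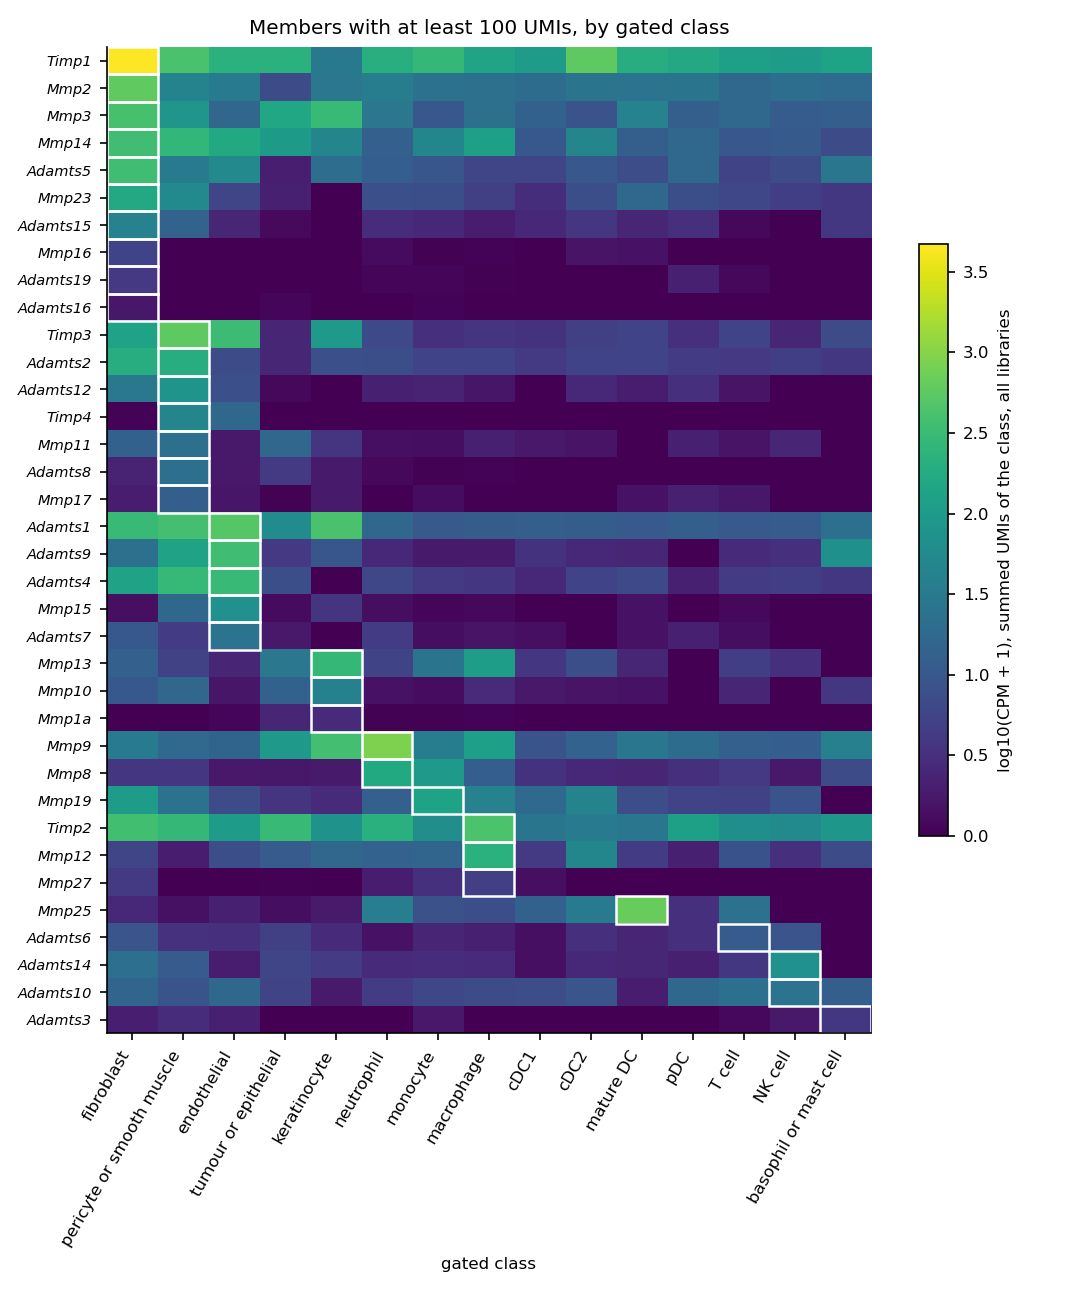
Heat map of the 36 members with at least 100 UMIs (rows) in the 15 gated classes (columns), as log10(CPM + 1) of UMIs summed over the 4 libraries. White boxes mark the leading class: 10 members are boxed in the fibroblast column and 7 in the pericyte or smooth muscle column. Timp1 and Timp2 are above 0 in every class, as are others, Mmp2 and Mmp14 among them.

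Fibroblasts led Timp1, 5 Mmp genes and 4 Adamts genes, with most UMIs of some in that class and others shared more widely. Timp1, the broad soluble inhibitor, read 3391, 5187, 5442 and 3556 CPM in the fibroblasts of libraries 1 to 4, and fibroblasts held 93.9% of its gated UMIs. The next class was the conventional type 2 dendritic cell (cDC2), at 489, 726 and 749 CPM in libraries 2 to 4, so all 3 libraries of cDC2 lay under all 4 of fibroblasts. Mmp2, a gelatinase, read 688, 972, 397 and 434 CPM in fibroblasts, again above every other class, with 96.2% of its UMIs there. Adamts5, an aggrecan-cleaving enzyme, had 97.4% of its UMIs in fibroblasts, and its 66.1 CPM in library 1 stood well under the 465, 230 and 388 CPM of the others.

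Mmp14 and Mmp3, also led by fibroblasts, were shared more widely. Mmp14, the membrane-type enzyme that activates pro-Mmp2, read 494, 445, 300 and 311 CPM in fibroblasts and 150, 102, 116 and 78.9 CPM in macrophages, so the ranges did not meet. Pericyte or smooth muscle cells read 350 and 103 CPM of Mmp14 in libraries 2 and 3, each below the fibroblasts of the same library. Mmp3, stromelysin-1, read 2570, 597, 295 and 178 CPM in fibroblasts. It was also present in keratinocyte cells of library 1 at 303 CPM, far under the fibroblasts of that library, and in tumour or epithelial cells at 155 and 130 CPM in libraries 1 and 2, below the fibroblasts of every library. Mmp23, a membrane-anchored member, read 140, 231, 90.7 and 173 CPM in fibroblasts with 96.5% of its UMIs there. Adamts15, a proteoglycan-cleaving enzyme, had 96.8% there and Mmp16, a membrane-type enzyme, 98.1%.

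The pooled share in fibroblasts says little about levels, because fibroblasts were deep (median 27072 UMIs) and many. Fibroblasts held more UMIs than any other class for 27 of the 36 members and over 50% in 25, although they led in only 10. No share over all genes stands beside the counts of 27 and 25, so they are not read as a trait of the members. Adamts2, which trims procollagen, is an example: 96.0% of its UMIs lay in fibroblasts, yet the pooled level was 189.9 CPM there and 190.0 CPM in pericyte or smooth muscle cells, with overlapping counting intervals. Per library, fibroblasts read 315, 301, 129 and 145 CPM of Adamts2 and the pericyte or smooth muscle cells 234 and 105 CPM in libraries 2 and 3, below the fibroblasts of both.

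Detection at equal depth gave the same picture for the 2 most abundant fibroblast genes. With each cell thinned to 1000 UMIs, Timp1 was seen in 77.8% of fibroblasts and 11.8% of T cells, and Mmp2 in 41.5% and 1.54% (unthinned 93.2% and 38.2% for Timp1, 88.3% and 7.61% for Mmp2; median depths 27072 and 3871 UMIs). The T cell values are what cells not known for these genes showed here. In the leucocyte classes Mmp2 lay far below fibroblasts, at 27.8 to 51.7 CPM over 9 classes of library 2, 11.7 to 32.1 over 8 of library 3, 9.93 to 31.0 over 9 of library 4 and 0 to 4.47 over 7 of library 1. Keratinocyte cells of library 1 stood above those leucocytes at 27.9 CPM, and endothelial cells read 2.02, 31.5 and 42.2 CPM in libraries 1 to 3. Set per 100 UMIs of the fibroblast marker list, fibroblasts had 1.84, 1.82, 2.11 and 2.02 Mmp2 UMIs, neutrophils 1.74, 2.89, 3.09 and 2.73 and macrophages 3.85, 2.99, 4.31 and 3.53. Some classes lay further from the fibroblast ratio: keratinocyte cells had 17.6 on 33 Mmp2 UMIs, endothelial cells of library 3 had 8.76 on 41 UMIs, and pericyte or smooth muscle cells had 0.848 and 0.656 in libraries 2 and 3. Timp1 UMIs per 100 fibroblast-marker UMIs were 9.09, 9.72, 28.9 and 16.5 in fibroblasts of libraries 1 to 4. They were higher in cDC2, at 37.7, 125 and 112 in libraries 2 to 4, and in each library in monocytes and macrophages. Neutrophils had 25.8, 11.6, 31.2 and 17.2 and T cells 23.6, 11.4, 26.5 and 14.8. Outside library 1 both thus lay near the fibroblasts. The part that free RNA from fibroblasts had in these values was not tested.

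**Figure D2:**
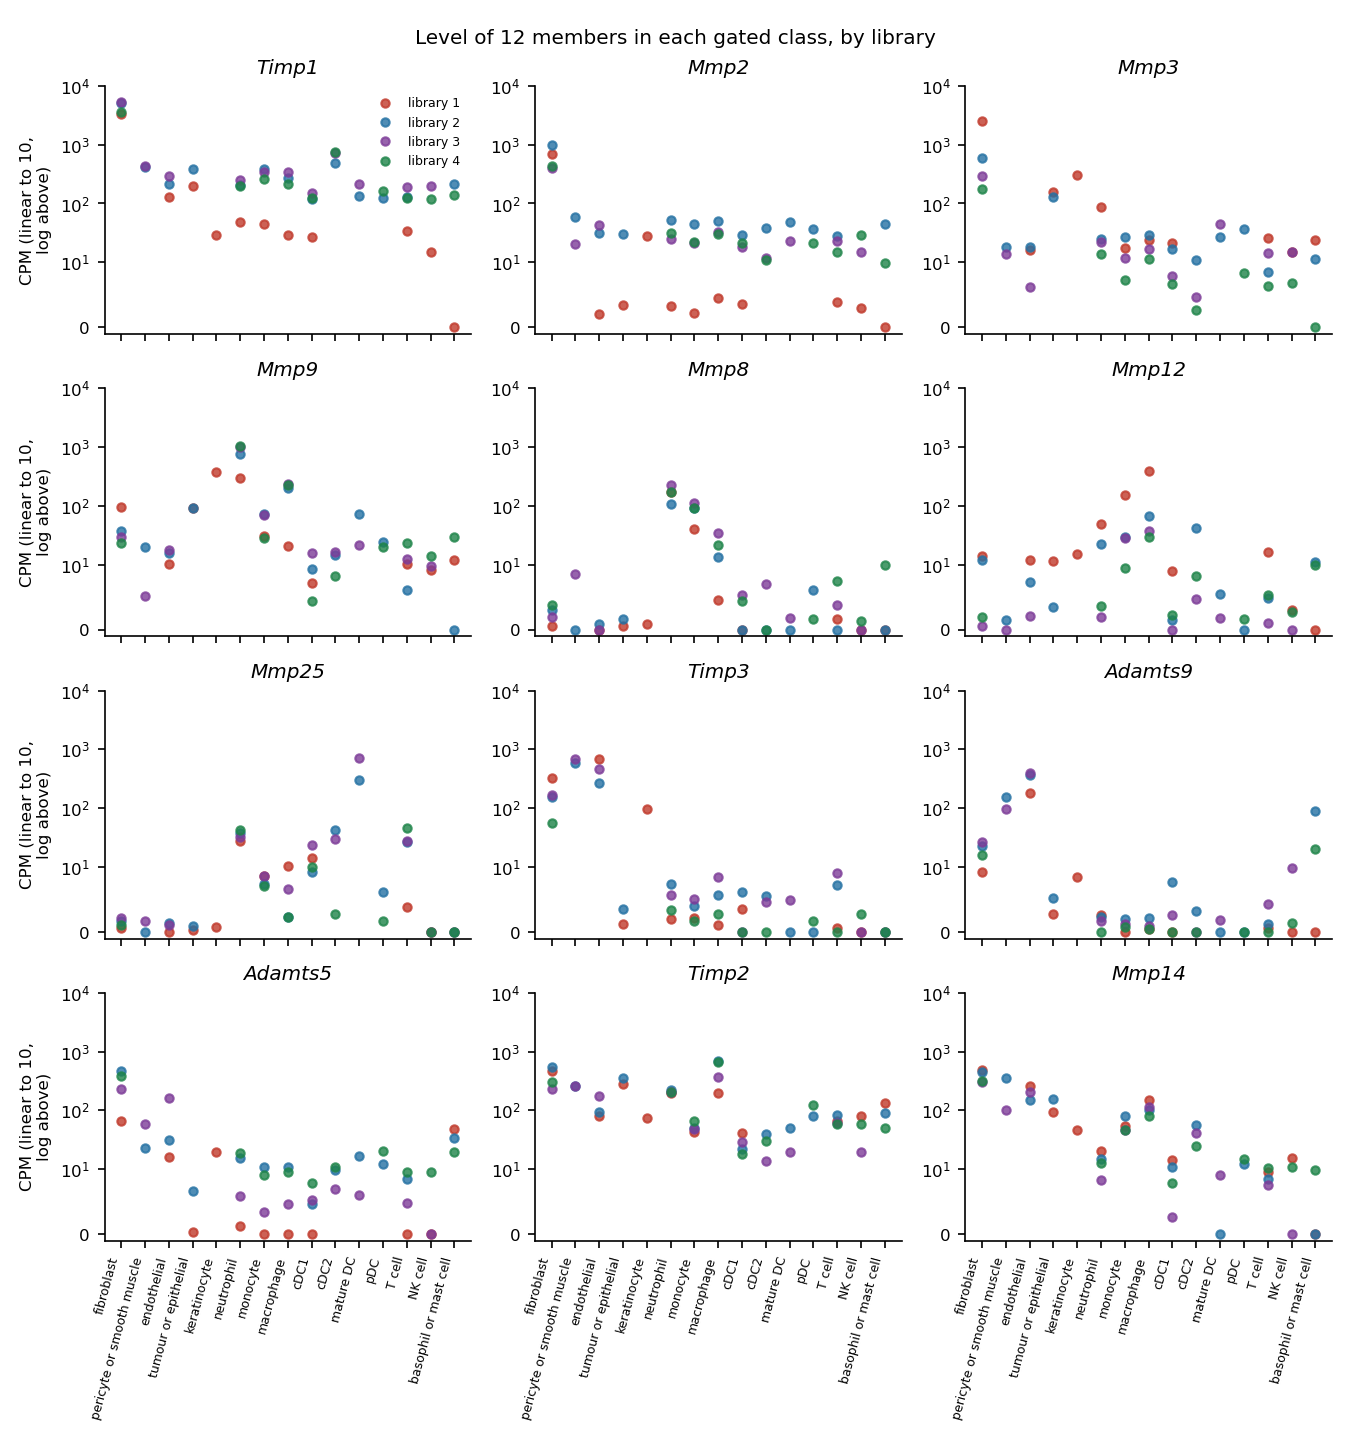
Level of 12 members (panels) in each gated class (x axis) as CPM (y axis, linear to 10 and logarithmic above), 1 point per library with at least 20 cells of the class. Mmp2 is highest in fibroblasts of every library, while Mmp8, Mmp25, Timp3 and Adamts9 fall to a few CPM or less in most other classes.

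Endothelial cells led Adamts1, Adamts4, Adamts7, Adamts9 and Mmp15, and pericyte or smooth muscle cells led 7 members, Timp3 and Timp4 among them. Adamts1 read 447, 467 and 719 CPM in endothelial cells of libraries 1 to 3, and 157, 423 and 281 CPM in fibroblasts of the same libraries, so endothelial cells were higher in each. In library 1 the keratinocyte cells, at 413 CPM of Adamts1, lay close to the endothelial value. At 1000 UMIs per cell, Adamts1 was seen in 40.5% of endothelial cells and 0.962% of T cells (unthinned 78.7% and 4.32%; median depths 10779 and 3871 UMIs). Adamts9, which cleaves versican, read 178, 368 and 400 CPM in endothelial cells against 9.26, 22.8 and 26.9 in fibroblasts. It was the more endothelial of the pair.

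Adamts4, an aggrecanase, could not be given to 1 vessel class: endothelial cells read 294 CPM in library 2 and 401 in library 3, and pericyte or smooth muscle cells 383 and 127, so the order turned between the libraries. Mmp15, a membrane-type enzyme, read 62.7, 76.7 and 56.7 CPM in endothelial cells of libraries 1 to 3, and 77.4% of its UMIs lay in that class. Adamts7, which cleaves cartilage oligomeric matrix protein, read 40.4, 23.5 and 15.4 CPM there against 12.8, 16.4 and 5.92 CPM in fibroblasts. Both were higher in endothelial cells in each of the 3 libraries.

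Timp3, the inhibitor that stays bound to the matrix, read 583 and 678 CPM in pericyte or smooth muscle cells of libraries 2 and 3. Endothelial cells read 691, 272 and 462 CPM and fibroblasts 326, 157, 165 and 55.6 CPM, in both cases lower than the pericyte class in libraries 2 and 3. Timp4 had 47.6% of its gated UMIs in endothelial cells and 47.1% in pericyte or smooth muscle cells. It was uneven between libraries, with 8.66 and 141 CPM in pericyte or smooth muscle cells and 2.02, 23.0 and 0 CPM in endothelial cells. Adamts12, a relative of Adamts7, at 105 and 13.7 CPM in pericyte or smooth muscle cells and 35.8 and 21.4 CPM in fibroblasts of libraries 2 and 3, changed order between libraries, and Mmp11, stromelysin-3, did so too with 27.6 and 3.43 CPM against 17.5 and 9.44.

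Neutrophils carried Mmp9 and Mmp8, gelatinase B and the neutrophil collagenase, both stored in their granules. Mmp9 read 299, 770, 1019 and 1049 CPM in neutrophils, with library 1 far below the other libraries. Macrophages read 20.3, 204, 232 and 226 CPM and the keratinocyte cells of library 1 read 378 CPM, so in library 1 neutrophils did not lead. At 1000 UMIs per cell Mmp9 was seen in 48.7% of neutrophils, 8.32% of macrophages and 0.769% of T cells (unthinned 64.0%, 22.0% and 5.63%; median depths 1808, 7648 and 3871 UMIs). Macrophages held 3.41, 16.5, 25.5 and 27.8 Mmp9 UMIs per 100 neutrophil-marker UMIs, and neutrophils 0.253, 0.834, 1.14 and 0.936. T cells, at 1.77, 1.02, 1.15 and 3.45, also lay above neutrophils in each library. The part that free RNA from neutrophils had in these values was not tested. Tumour or epithelial cells read 92.0 and 90.7 CPM of Mmp9 in libraries 1 and 2.

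Mmp8 read 175, 105, 222 and 175 CPM in neutrophils and 40.8, 90.5, 110 and 90.8 CPM in monocytes. Neutrophils were the higher in every library, by a margin that was small in library 2. At 1000 UMIs per cell, Mmp8 was seen in 11.04% of neutrophils, 7.15% of monocytes and 0.288% of T cells (unthinned 17.1%, 34.8% and 1.31%; median depths 1808, 7871.5 and 3871 UMIs). Within neutrophils, cells with an Mmp9 UMI had an Mmp8 UMI in 13.0% and cells without one in 9.16%. The difference had the same sign in every library, at 12.9 against 7.95%, 10.3 against 6.24%, 16.3 against 12.3% and 11.5 against 10.9%, with overlapping exact binomial intervals in libraries 1 and 4.

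Monocytes and macrophages led 4 members. Mmp19 read 96.7, 179, 92.8 and 134 CPM in monocytes and 94.6, 140, 80.5 and 94.3 CPM in fibroblasts. Monocytes were higher in each library, though by less than the counting error in library 1. Timp2, a soluble inhibitor that also helps Mmp14 to activate pro-Mmp2, read 198, 700, 376 and 666 CPM in macrophages and 467, 549, 231 and 304 CPM in fibroblasts, so macrophages led in libraries 2 to 4 and fibroblasts in library 1. Timp2 was also level across libraries in neutrophils, at 199, 219, 205 and 207 CPM.

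Mmp12, the macrophage elastase, read 388, 66.8, 37.7 and 29.1 CPM in macrophages, which held 72.3% of its UMIs, and library 1 was far above the rest. At 1000 UMIs per cell it was seen in 17.4%, 1.93%, 4.09% and 1.02% of macrophages of libraries 1 to 4 and in 0.962% of all T cells (unthinned 38.6%, 4.71%, 4.79%, 5.12% and 3.47%; pooled median depths 7648 and 3871 UMIs). Mmp13, the rodent interstitial collagenase, read 187, 32.4, 53.8 and 28.9 CPM in macrophages and 280 CPM in the keratinocyte cells of library 1. Mmp27 was low in all cells, at 0.21, 6.01, 7.55 and 9.53 CPM in macrophages and 1.60, 6.49, 1.18 and 2.38 CPM in fibroblasts. Fibroblasts led it in libraries 1 and 2 and macrophages in libraries 3 and 4. The pooled levels, 3.89 CPM in macrophages and 3.17 in fibroblasts, had overlapping counting intervals.

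Mmp25, a glycolipid-anchored enzyme first known from leucocytes, was the clearest marker of 1 small class. It read 301 CPM in the 21 mature DC of library 2 and 719 CPM in the 196 of library 3. Neutrophils, the next class in the pooled values, read 27.6, 37.3, 32.6 and 42.8 CPM, and in library 4 T cells lay above them. At 1000 UMIs per cell Mmp25 was seen in 42.4% of mature DC, 3.23% of neutrophils and 2.88% of T cells (unthinned 84.6%, 6.53% and 7.98%; median depths 8736, 1808 and 3871 UMIs). Libraries 1 and 4 held 19 and 5 mature DC, too few to be used here. Adamts14, a procollagen-trimming enzyme, was led by NK cells at 39.5, 63.9 and 82.5 CPM in libraries 1, 3 and 4, on 13, 13 and 60 UMIs. T cells of the same libraries read 5.59, 1.61 and 0 CPM of Adamts14, and fibroblasts, which held 79.7% of its UMIs, read 16.6, 20.4 and 20.7 CPM.

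The remaining leading classes rest on few UMIs. Adamts10 differed little between NK cells and T cells (24.3 and 20.8 CPM pooled), Adamts6 between T cells and NK cells (10.3 and 8.35 CPM), and Adamts3 was led by 1 UMI in basophil or mast cells. Mmp1a, a collagenase, was led by 2 UMIs in keratinocyte cells while tumour or epithelial cells held 92.6% of its UMIs (109 and 16 UMIs in libraries 1 and 2). It shares close sequence with Mmp1b, so reads of the pair are uncertain. Adamts8 was led by pericyte or smooth muscle cells at 21.2 CPM pooled, and in libraries 2 and 3 each. Tumour or epithelial cells held 279 UMIs, 56.0% of its gated UMIs, but read 3.25 CPM. There were 10 members with under 100 UMIs: Mmp28, Mmp24, Mmp1b, Mmp21, Mmp20, Mmp7, Adamts17, Adamts20, Adamts13 and Adamts18, the first with 92 UMIs and Mmp20 and Mmp7 with 1 each.

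The balance of inhibitor to enzyme transcripts differed between classes. Of all member UMIs, pooled over libraries, Timp genes made up 68.8% in cDC2, 65.75% in plasmacytoid DC (pDC), 64.7% in fibroblasts, 50.03% in tumour or epithelial cells, 43.7% in macrophages, 25.3% in neutrophils, 21.6% in mature DC and 11.4% in keratinocyte cells. By library the Timp share was 42.5, 59.3, 73.6 and 63.4% in fibroblasts, 21.6, 59.7, 53.4 and 61.6% in macrophages and 25.5, 27.8, 25.0 and 22.1% in neutrophils. The pooled order did not hold in each library: in library 1 tumour or epithelial cells, at 49.4%, lay above fibroblasts, and in library 2 macrophages and fibroblasts were level. Neutrophils stayed within a few points, while library 1 was lowest in both fibroblasts and macrophages. Fibroblasts carried 0.852, 2.38, 4.80 and 3.15 Timp UMIs per Mmp UMI, on summed Mmp levels of 4908, 2474, 1216 and 1242 CPM. These are transcript counts and not inhibitor or enzyme activity. In pDC, Timp1 stood near its ratio to fibroblast markers in fibroblasts, at 9.26 and 19.9 per 100 marker UMIs in libraries 2 and 4 against 9.72 and 16.5. The part of free RNA in the Timp shares was not tested.

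**Figure D3:**
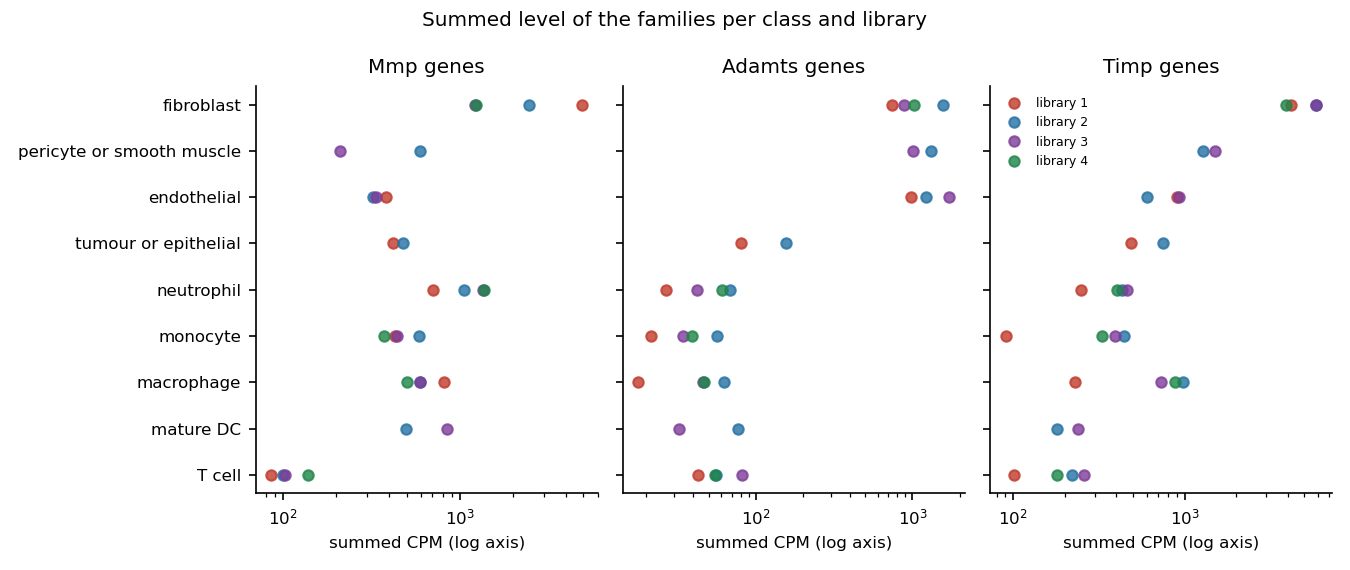
Summed CPM (x axis, logarithmic) of the Mmp, Adamts and Timp genes (panels) in 9 gated classes (y axis), 1 point per library with at least 20 cells of the class. In fibroblasts the Mmp sum is highest in library 1 (4908 CPM) and the Timp sum stays between 3915 and 5893 CPM.

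Single fibroblasts carried several members at once. At 1000 UMIs per cell the median fibroblast had 3 members detected, the highest had 11, and 2.67% had none. Endothelial and pericyte or smooth muscle cells had a median of 2, neutrophils, macrophages and tumour or epithelial cells 1, and T cells 0. Among fibroblasts, Timp2 was seen in 41.9% of cells with an Mmp2 UMI and 24.7% of cells without. The share was higher with Mmp2 in each library, at 35.3 against 28.6%, 47.9 against 31.6%, 37.9 against 18.6% and 35.1 against 23.1%, with overlapping intervals in library 1. For Mmp2 and Mmp14 the pooled shares were 35.2 and 25.2%, again higher with Mmp2 in every library, with overlapping intervals in libraries 1 and 3. Timp1 followed neither rule: it was seen in 76.5% of fibroblasts with an Mmp2 UMI and 78.8% without, and the sign differed between libraries.

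Library 1 was looked at further because its fibroblasts and macrophages stood apart, a comparison chosen after the values were seen. A member was counted when its CPM in library 1 was at least 2 times the highest of the other libraries. In fibroblasts this held for 6 of 32 members (18.8%, beside 3.98% of all genes), in macrophages for 2 of 17 (11.8%, beside 4.91%) and in neutrophils for 2 of 15 (13.3%, beside 6.81%). Counted in the same way against the lowest of the other libraries, 2 of 32 members were lower in library 1 in fibroblasts (6.25%, beside 4.25% of all genes), 10 of 17 in macrophages (58.8%, beside 8.79%) and 4 of 15 in neutrophils (26.7%, beside 8.6%), so in macrophages and neutrophils more members were lower than higher. In fibroblasts, Mmp10, stromelysin-2, read 344, 1.01, 0.997 and 0.161 CPM in libraries 1 to 4, a 342-fold gap to the next library. Of its 1166 fibroblast UMIs, under 100 lay outside library 1, so Mmp10 could be counted only through that library. Mmp13 read 417, 3.18, 1.14 and 2.28 CPM, a 131-fold gap. Mmp3, at 2570 CPM, was 4.31-fold above the next library. Mmp17, Mmp9 and Mmp11 were 3.89, 2.59 and 2.09-fold above it. Mmp12 and Mmp13 were the 2 members counted in macrophages, at 5.81 and 3.48-fold, and Mmp12 and Mmp3 those in neutrophils, at 2.21 and 3.53-fold. The neutrophil pair was not firm: Mmp12 lost its place in all 5 alternatives of gate, filter, clusters and depth, in 4 of them for too few UMIs, and Mmp3 in 3, with the stricter gate, with Leiden clusters and without the deepest cells.

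The lower members in macrophages were Mmp9, Timp1, Mmp23, Mmp19, Mmp2, Mmp8, Mmp27, Adamts1, Adamts2 and Adamts5. Timp1 read 29.5 CPM in macrophages of library 1 and 272, 349 and 212 in libraries 2 to 4. In neutrophils they were Mmp9, Timp1, Mmp2 and Adamts5, with Timp1 at 48.6, 207, 251 and 195 CPM. In fibroblasts they were Adamts5 and Mmp8, the latter at 0.639, 2.97, 1.97 and 3.76 CPM. The summed fibroblast markers moved with library 1 in the same direction, at 116 CPM in the macrophage class beside 744 to 1689 in the other libraries, and at 188 CPM in the neutrophil class beside 806 to 1787, with none of the 8 markers at 0. Their part in the lower values was not tested.

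Of the chromosome 9 cluster, Mmp13, Mmp12, Mmp3 and Mmp10 had gaps over 3-fold in fibroblasts or macrophages, while Mmp27, at 0.21 CPM in macrophages of library 1, and Mmp8 were not counted as higher in library 1 in any of the 3 classes. Few cells carried the 2 largest gaps: at 1000 UMIs per cell Mmp10 was seen in 14.2% and Mmp13 in 9.47% of the 190 library 1 fibroblasts, beside 0.275% and 0.824% of library 1 T cells (unthinned 23.7%, 21.7%, 0.809% and 4.31%; median depths 13818.5 and 3989 UMIs). At that depth 1 member, Mmp3, still met the 2-fold rule in fibroblasts of 16 that could be counted, Mmp9 no longer did, and Mmp10, Mmp11, Mmp13 and Mmp17 had under 100 UMIs left and could not be counted.

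Other signals moved with library 1 too, and their part in these values was not tested. Summed over its 8 markers, the tumour or epithelial list read 809 CPM in library 1 fibroblasts and 15.2 to 63.1 CPM in the other libraries, with no marker at 0 in library 1. The 8 keratinocyte markers summed to 153 CPM (5.34 to 9.49 elsewhere), the 8 macrophage markers to 424 (26.4 to 171) and the 9 pericyte or smooth muscle markers to 1982 (128 to 310). The fibroblast list itself summed to 37317 CPM, inside the range of the others. Lrrc15, a marker of tumour fibroblasts, read 498 CPM against 9.44 to 88.8 elsewhere, and of 5 AP-1 genes 3 were above all other libraries there: Fos at 2321 CPM against 710 to 1333, Jun at 2948 against 1011 to 1240 and Junb at 1486 against 795 to 1334. Fosb, at 792 against 312 to 806, and Fosl1, at 86.3 against 57.5 to 99.5, lay inside their range. In macrophages of library 1, Fos (4366 CPM against 547 to 1409), Jun (3326 against 818 to 1283) and Fosb (988 against 179 to 525) were above the others. In neutrophils Jun (2387 against 598 to 1141), Fosl1 (50.5 against 20.3 to 31.3) and Fos (1780 against 622 to 1720) were. In both classes the remaining AP-1 genes lay inside their range. The genes used below to split these classes differed as well. In macrophages Cd163 read 6.57 CPM in library 1 against 245 to 528 elsewhere, and Arg1 305 against 1203 to 1555. In neutrophils Retnlg read 4628 CPM against 667 to 1619. Hspa1a, a heat-shock gene that rises with cell stress, was higher in library 1 in all 3 classes, at 457 CPM against 44.9 to 102 in fibroblasts, 1818 against 91.5 to 415 in macrophages and 227 against 22.5 to 31.8 in neutrophils. Library, treatment and cell makeup cannot be told apart in this design.

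**Figure D4:**
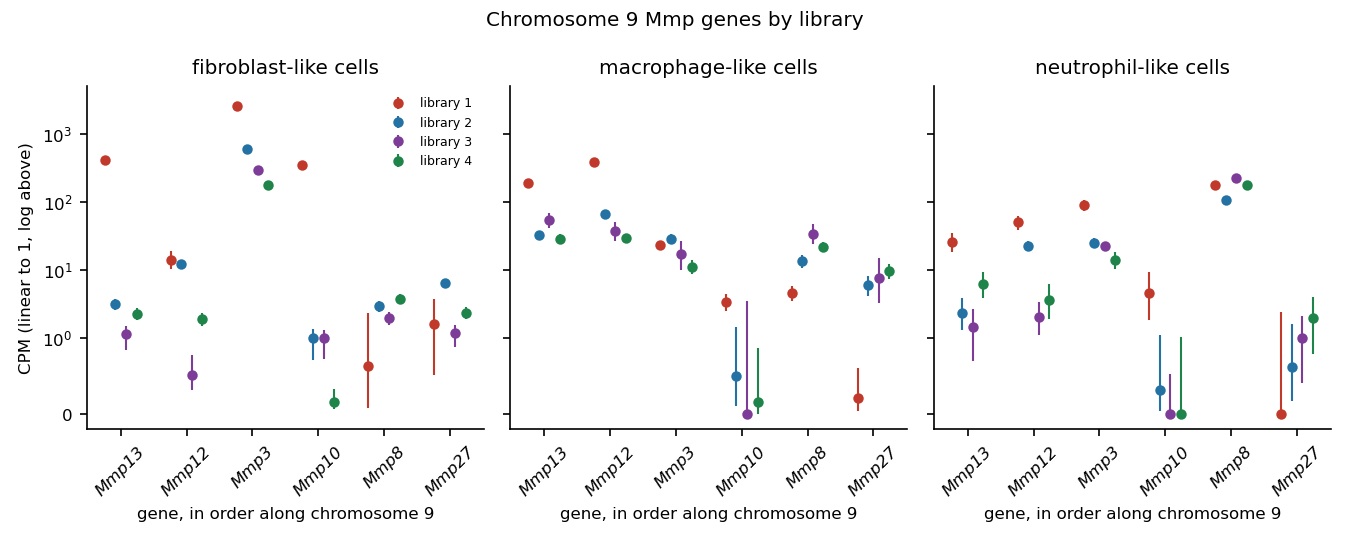
CPM (y axis, linear to 1 and logarithmic above) of 6 Mmp genes in their order along chromosome 9 (x axis) in fibroblasts, macrophages and neutrophils, 1 point per library with exact Poisson 95% intervals. Mmp13, Mmp3 and Mmp10 of library 1 lie highest in fibroblasts, Mmp13 and Mmp12 in macrophages, and Mmp8 of library 1 lies inside or below the other libraries.

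Within classes, cells were split by 1 gene after thinning to 1000 UMIs, and a member was counted when the pooled gap was at least 2-fold with the same sign in every library that had 50 cells on both sides. Among neutrophils, 1 of 19 members was higher in cells with Retnlg, a gene of mature neutrophils (0.256% of all genes were higher), and 0 were lower (2.68% of all genes). That member was Mmp8, at 268 against 58.5 CPM, 155 against 97.95, 350 against 160 and 226 against 123 in libraries 1 to 4, a pooled gap of 2.15-fold. Mmp9 did not differ in this way, at 942 against 889 CPM pooled. The sum of the 9 neutrophil markers, of which Retnlg is 1, also differed, at 135264 against 83536 CPM.

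Among macrophages, 2 of 13 members were higher in cells with Arg1, an enzyme of arginine breakdown (1.16% of all genes), and 0 were lower (1.85%). Mmp9 read 49.0 against 21.2, 562 against 46.7, 299 against 122 and 741 against 154 CPM, an 8.41-fold pooled gap. Mmp12 read 990 against 244, 101 against 13.1, 165 against 0 and 24.5 against 9.93 CPM, a 2.12-fold gap. Arg1-positive cells were higher in every library for both genes. The pooled gaps mix libraries in unequal parts and are not the gap inside a library. Library 1 held 204 of the 934 Arg1-positive and 1084 of the 2096 Arg1-negative cells. Mmp13 had a 1.30-fold pooled gap and was not counted, but was also higher in every library. It read 299 against 161, 72.0 against 13.1, 92.8 against 13.5 and 59.4 against 29.8 CPM, and was counted without library 1. Mmp19, at a 1.97-fold pooled gap, was higher in each library too. Timp2 was lower with Arg1 in libraries 2 to 4, at 438 against 879, 361 against 757 and 497 against 705 CPM. In library 1 Timp2 was higher, at 324 against 188 CPM. Marker lists moved with the split too, and their part in these gaps was not tested. The 9 neutrophil markers summed to 814 against 882 CPM pooled and were lower in Arg1-positive cells in each library, most in library 4 at 647 against 945. The macrophage list read 7206 against 10755 CPM pooled and the cDC2 list 89.9 against 259, both also lower in each library. Pooled, the tumour or epithelial list read 118 against 333 CPM and the monocyte list 1706 against 1255. Mmp12 was no longer counted with the stricter gate or with 5000 UMIs per cell. At 5000 UMIs its pooled gap was 1.97-fold, with 779 against 242, 94.5 against 10.9 and 32.0 against 5.10 CPM in libraries 1, 2 and 4. Without thinning, neither Mmp9 nor Mmp12 was counted. Mmp9 kept a 5.29-fold pooled gap, but in library 1 it read 14.7 against 24.0 CPM. The pooled gap of Mmp12 was 1.97-fold. By library, unthinned Mmp12 read 650 against 214, 102 against 8.45, 50.8 against 0 and 36.9 against 7.61 CPM.

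The other splits rested on 1 or 2 libraries. With Cd163, a scavenger receptor, 1 of 11 members was higher (4.22% of all genes) and 3 lower (4.97%) in macrophages of libraries 2 and 4. Mmp9 read 357 against 206 and 1000 against 263 CPM, a count that was lost without library 4. Mmp13, Mmp12 and Mmp8 were the lower members, on 3, 3 and 4 UMIs on the Cd163-positive side. Mmp13 and Mmp8 were lost without thinning and at 5000 UMIs per cell, Mmp12 with the stricter gate, and all 3 with a minimum of 100 UMIs. Without library 2 Mmp12 and Mmp8 were lost, and without library 4 Mmp8. In fibroblasts of library 2 alone, Lrrc15-positive cells were set against Lrrc15-negative cells with Dpt, a gene of resting fibroblasts, and 1 of 15 members was higher (5.07% of all genes) and 3 lower (8.29%). Mmp9 was higher on 12 and 17 UMIs, a count that was lost without thinning and with a minimum of 100 UMIs. Mmp3, at 415 against 1054 CPM, Adamts1, at 302 against 620, and Adamts5, at 226 against 665, were lower, and none of the 3 met the rule without thinning or at 5000 UMIs per cell. Among tumour or epithelial cells of libraries 1 and 2, 0 of 12 members were higher (1.32% of all genes) or lower (0.812%) in cells with Epcam or Cldn4. In library 1 Mmp13 read 36.4 against 9.13 CPM and Mmp9 98.7 against 47.0. Library 2 held only 0 against 3 UMIs of Mmp13 and 10 against 11 of Mmp9. Both were counted as higher without library 2, without thinning and at 5000 UMIs per cell, each time on 1 library.

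**Figure D5:**
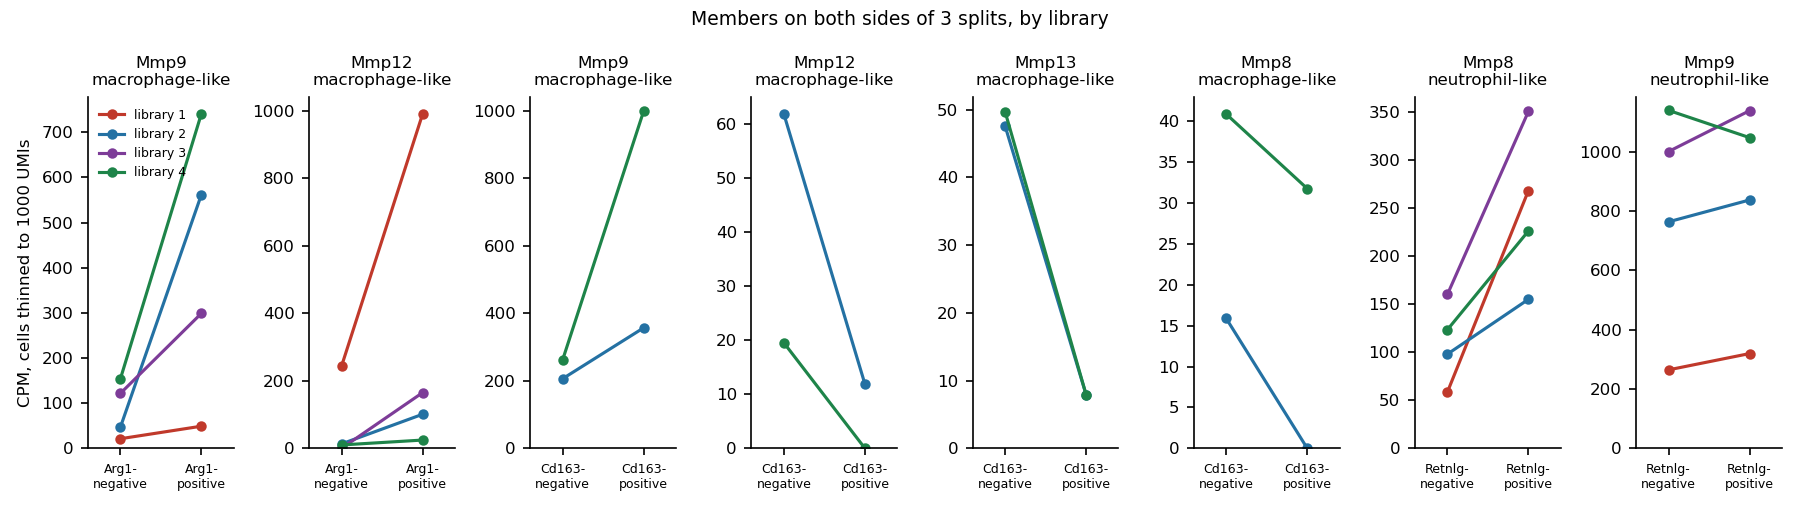
CPM (y axis, cells thinned to 1000 UMIs) of named members on the negative and positive side of the Arg1, Cd163 and Retnlg splits (x axis), 1 line per library. Mmp9 and Mmp12 rise from Arg1-negative to Arg1-positive macrophages in all 4 libraries, Mmp8 rises with Retnlg in neutrophils in all 4, and the neutrophil Mmp9 lines run in both directions.

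Genes that work with these enzymes were read in the same way, from lists of 41 genes grouped by function. These lists were chosen with earlier results of these data known. Of the plasminogen system, which turns on several pro-Mmp enzymes, 6 of 7 genes had at least 500 UMIs. Fibroblasts led Plau, the urokinase protease (310 CPM), and neutrophils led Plaur, its receptor (751 CPM), so enzyme and receptor were highest in different classes. Of 4 genes for pro-enzyme activation and induction, fibroblasts led Pcsk5 and Bsg, endothelial cells Pcsk6, and basophil or mast cells Furin, at 1418 CPM. Of the 7 further inhibitors, partners and clearance genes with at least 500 UMIs, fibroblasts led 4 (8.76% of all 13464 genes with at least 500 UMIs), among them Lrp1, a receptor that takes up these proteins (454 CPM), and Thbs2 (291 CPM). Neutrophils led 2 (6.68% of all genes), Lcn2 (3189 CPM), whose protein binds Mmp9, and Cd44 (837 CPM). Of the Adamts substrates, versican (Vcan) was led by monocytes at 761 CPM, von Willebrand factor (Vwf) by endothelial cells at 88.9 CPM and fibrillin-1 (Fbn1) by fibroblasts at 861 CPM. Of the 8 Adam sheddases with at least 500 UMIs, endothelial cells led 2 (10.3% of all genes) and 6 other classes 1 each. All these leads are pooled. By library, the named class led Plau, Bsg, Cd44 and Vcan in 3 of 4 libraries. Of the sheddase leads, those of endothelial cells and fibroblasts held in every library with at least 20 cells of the class, and the rest did not.

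Genes with the closest level pattern to the 8 most abundant members were ranked by Pearson's r over 32 profiles of a class in a library. The profiles share libraries and depth, so r is a description. Mmp2 was closest to Cpxm1 (r = 0.976), Loxl1 (0.971) and Lox (0.971), and Timp1 to Lox (0.936) and Dcn (0.921). Adamts5 was closest to Serpina3n (0.967) and Ogn (0.954), Adamts1 to Hspb1 (0.951), Mmp3 to Sfrp1 (0.930) and Mmp14 to Plod3 (0.919). Mmp9 was closest to Gadd45a (0.847), and Timp2 had the loosest best match, Pdgfc (0.786).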

How the data were processed

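Single-cell 3' libraries (10x Genomics) of CD45-sorted 4T1 tumour cells were aggregated by the authors and deposited as 1 matrix of UMI counts per gene and barcode, unnormalized as far as the values show (whole numbers). Cell Ranger is given as 2.1.1 in the submitters' processing notes, 3.0.2 in the series design text and 6.1.2 in the matrix header. Whether aggregation equalised depth is not stated. The build is mm10, and all 55450 gene identifiers matched GENCODE vM21.

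Cells were kept with at least 300 genes and at most 15% mitochondrial UMIs, the filter stated by the study, which left 32133 of 33064 barcodes here, while the study's labels give 15603 cells for its own matrix. Each cell was named from fixed marker lists: the class score was the mean over markers of log-scaled counts per 10000, divided by the marker's mean in positive cells. A class needed 2 markers, a score of 0.2 and 1.5 times the next score. The 5336 cells that failed stayed ungated, which is also how mixed cells and doublets were treated, and no doublet caller was run. Levels are UMIs per 1000000 class UMIs. A class in a library needed 20 cells. For detection and splits each cell was thinned at random to 1000 UMIs, and 1195 shallower gated cells were left out. Intervals are exact Poisson and Clopper-Pearson at 95% and cover counting error only. Members with at least 500 UMIs are named with values, as are members counted in a split. One gene of the lists is counted but not reported here by name. The members, gene lists and gate were chosen with earlier results of these data known. Scripts were tested on simulated data and used Python 3.11.15, numpy 2.4.6, scipy 1.17.1, pandas 2.3.3 and scanpy 1.11.5.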

Additional observations from a re-analysis of the deposited data

Results flagged for a closer look

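Classes of under 50 cells took no part in the comparisons above, and for 3 member values in them the lower counting bound lay above the level of every class that did. Mmp17, a glycolipid-anchored enzyme, read 128 CPM in 35 Schwann cells, on 31 UMIs from 3 libraries (exact Poisson 95% interval 87.2 to 182 CPM), and the highest of the classes used was 11.8 CPM. Adamts20, an enzyme best known from pigment cell development, read 20.7 CPM in the same Schwann cells on 5 UMIs (6.72 to 48.3 CPM) and 2.99 CPM in 49 skeletal muscle cells on 7 UMIs (1.204 to 6.17 CPM). The highest of the classes used was 0.943 CPM for Adamts20, in pericyte or smooth muscle cells, with an interval of 0.114 to 3.41 CPM that overlaps the skeletal muscle one. Adamts20 had 77 UMIs in all, under the 100 needed to order classes.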

How the results depend on the processing

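No paired analysis was possible because no source ties a library to a sample. Intervals cover counting error only, and members under 100 UMIs set no order of classes. Thinning to 1000 UMIs left 24 members to be read, of which 18 kept their leading class. The median share of a member's UMIs in its leading class, 18.7%, moved to 29.1% with at least 500 genes, 29.0% with at most 10% mitochondrial UMIs, 49.5% with Leiden clusters, 37.6% after thinning, 37.2% without the deepest 5% of cells and 22.6 to 46.6% without 1 library each. No member's share lay between 19.1 and 38.9%, just above the median. The Timp share in fibroblasts was 64.5, 64.4, 56.7 and 62.4% with a stricter gate, Leiden clusters, thinning and without the deepest cells, and 60.2 to 67.8% without 1 library each. In the same order it was 42.1, 35.6, 45.1 and 42.7% in macrophages (37.5 to 60.1% without 1 library, the highest without library 1) and 49.3, 50.6, 52.1 and 51.2% in tumour or epithelial cells (49.4 to 54.0%). In neutrophils it was 24.1 to 26.2% without 1 library each. The causes of these moves were not tested.

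The count of members 2-fold higher in library 1 fell from 6 to 1 of 16 in fibroblasts after thinning. In neutrophils the count of 2 became 0 with the stricter gate and without the deepest cells, and 1 with at least 500 genes and after thinning (Mmp3), and with Leiden clusters (Mmp13, in place of Mmp12 and Mmp3). The count of members lower in library 1 was added with its alternatives after the data were seen. In fibroblasts it went from 2 to 1 of 32 with the stricter gate, with Leiden clusters and without the deepest cells (Mmp8 lost). In macrophages it went from 10 of 17 to 7 of 13 with the stricter gate and 6 of 13 with Leiden clusters. There it was 9 of 15 without the deepest cells and 4 of 7 after thinning. Timp2 was gained in each of these, and the lost members had too few UMIs, except Mmp8 with Leiden clusters. In neutrophils it stayed at 4, and was 3 of 9 after thinning. Mmp12 and Mmp13, the members higher in library 1 in macrophages, were kept in all 5 alternatives. At 1.5-fold, the Retnlg split counted 2 members higher and 1 lower, the fibroblast split 4 higher and 5 lower, and the tumour split 1 higher. Without thinning, 1 member was lower with Cd163 and 0 were lower in the fibroblast split. In the tumour split 5 were higher and 8 lower, on 1 library. With thinning to 5000 UMIs, added after the data were seen, 4 members were higher (Mmp9 and 3 others, with Mmp12 lost) and 1 lower with Arg1, 1 was lower with Cd163, and 3 were higher and 1 lower in the tumour split. A minimum of 100 UMIs left 0 members lower with Cd163 and 0 higher in the fibroblast split. Without 1 library each, counts ran from 0 to 2 lower with Retnlg, 3 to 4 higher with Arg1, 0 to 1 higher and 1 to 3 lower with Cd163, and 0 to 2 higher in the tumour split. Mmp9, higher with Cd163, and Mmp12, lower with Cd163, were counted at 1000 UMIs, at 5000 UMIs and without thinning. At 5000 UMIs too few neutrophils were left for the Retnlg split, which gave no value. The counts under these alternatives have no share over all genes beside them and are not read as a trait of the members.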
